A study of Mus musculus with 15 samples.

Results

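The 10 genes that help cut proteins into peptides and load the peptides onto class I molecules were followed in mouse lung during mechanical ventilation with and without hydrogen sulfide (H2S): Psmb8, Psmb9, Psmb10, Psme1, Psme2, Tap1, Tap2, Tapbp, B2m and Nlrc5. They were taken by name from the 19934 genes that have a probe set with 1 annotated symbol, and each is represented by its probe set with the highest mean log2 intensity over the 15 arrays. All 10 were measured, no filter on low values was applied, and they have 28 probe sets of their own, 19 of Nlrc5 and 1 of each other gene.

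Male mice of the inbred C57BL/6N strain were used, in 3 groups of 5. All were anesthetized with ketamine and acepromazine and carried a tracheal tube and an arterial line. Controls spent 6 h breathing synthetic air on their own. The remaining mice spent the same 6 h on a ventilator set to 12 ml/kg per breath, with 2 cmH2O kept in the airways at the end of expiration (PEEP), either with synthetic air (air-ventilated) or with synthetic air holding 80 ppm H2S (H2S-ventilated). RNA of the inferior right lung lobe was measured on whole-transcript arrays, 1 array per mouse, and the deposited values are normalized intensities, which have no unit. Mice are called here by the running number of their label, which fell into a set from 1 to 12 (3 mice per group) and a set from 20 to 28 (2 mice per group); the meaning of the sets is not stated in the labels or the methods. Array medians lay between 179.1 and 187.4, and the alveolar type II markers, among them the surfactant genes Sftpa1, Sftpb and Sftpc, summed to between 43990 and 45990 in each of the 15 mice. Spontaneous breathing of H2S was not analysed here.

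Cells continuously degrade cytosolic proteins in the proteasome, and interferon-gamma replaces its constitutive catalytic subunits Psmb5, Psmb6 and Psmb7 by the inducible Psmb8, Psmb9 and Psmb10, which gives the immunoproteasome. Psme1 and Psme2 are the subunits of the PA28 activator that caps it, Tap1 and Tap2 form the transporter that carries peptides into the endoplasmic reticulum, Tapbp (tapasin) holds the transporter to the class I molecule, and B2m is the light chain shared by all class I molecules. Nlrc5 is the transactivator that drives class I genes, as Ciita does for class II.

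Of these genes, 4 (Psmb9, Tap1, Psmb8 and Tap2) lie side by side in RefSeq's annotation, and Psmb9 and Tap1 are read away from each other. RefSeq promoter windows (250 bases before to 50 after a gene's start, 300 in all, build GRCm38.p6) were found for 8 of the 10 genes; Tap2 and Nlrc5 were the exceptions. The windows of Psmb9 and Tap1 cover 275 common bases, so the window of Tap1 is shown for both. Those of Psme1 and B2m are shown because they are the only members' windows holding the core of the interferon-stimulated response element. Each is written 5′ to 3′ along its gene, the shared window along Tap1 and thus against the direction of Psmb9. Capitals mark the letters of GAAANNGAA (that core), CCAAT or GGGCGG (a GC box) on either strand.
Tap1 and Psmb9 (chr17:34187306-34187605, + strand): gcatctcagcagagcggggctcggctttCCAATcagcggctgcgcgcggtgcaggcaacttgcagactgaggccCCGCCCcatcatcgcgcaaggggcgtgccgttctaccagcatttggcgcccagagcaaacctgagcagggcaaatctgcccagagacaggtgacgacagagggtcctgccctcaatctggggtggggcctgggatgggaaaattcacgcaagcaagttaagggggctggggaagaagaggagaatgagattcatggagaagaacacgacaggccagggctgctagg
Psme1 (chr14:55578244-55578543, + strand): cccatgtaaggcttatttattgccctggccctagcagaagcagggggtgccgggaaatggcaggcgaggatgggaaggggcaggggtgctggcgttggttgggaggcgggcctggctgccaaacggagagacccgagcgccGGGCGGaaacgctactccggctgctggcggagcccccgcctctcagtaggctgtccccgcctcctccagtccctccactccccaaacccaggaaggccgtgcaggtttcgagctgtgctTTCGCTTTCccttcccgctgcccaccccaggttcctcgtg
B2m (chr2:122147437-122147736, + strand): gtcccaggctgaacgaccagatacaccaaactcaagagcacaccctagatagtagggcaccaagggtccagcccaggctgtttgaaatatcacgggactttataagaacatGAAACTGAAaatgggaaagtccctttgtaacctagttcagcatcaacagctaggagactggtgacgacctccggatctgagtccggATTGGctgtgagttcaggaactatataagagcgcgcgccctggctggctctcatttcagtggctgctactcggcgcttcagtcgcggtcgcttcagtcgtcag
GAAANNGAA occurred in the windows of 2 members, Psme1 and B2m, and in 8.56% of the 32851 promoter windows of the genome. Of the 8 members with a window, CCAAT was held by 4 (37.4% of all windows) and GGGCGG by 5 (35.7%). Psmb9 and Tap1 hold the same CCAAT and the same GGGCGG in their common bases, so each of these sites is counted for both genes. No marked motif overlaps another in the windows shown, and a match of letters is a description of the window, not a measured binding site.

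A minority of the members passed limma's test with either gas, and those that did were all lower in ventilated lungs. Psme2 and Psmb10 fell with air ventilation, and Psme2, Psmb10, Psmb9 and Tap2 fell with H2S ventilation. On the linear scale Psme2 fell by 25.2% and Psmb10 fell by 31.8% with air, while with H2S Psme2 fell by 30.8%, Psmb10 fell by 34.0%, Psmb9 fell by 38.3% and Tap2 fell by 28.8%. B2m, the light chain, differed from control by -3.1% and -4.0%. Counted over the group, 2 of 10 members were lower with air at an adjusted p under 0.05, against 1.89% of all 28361 probe sets, and 4 of 10 were lower with H2S, against 3.93% (limma, Benjamini-Hochberg over all probe sets). CyberT, the test named in the study's methods, put 7 of 10 lower with each gas (950 and 1372 of all probe sets). None was higher with either gas (0 of 10, where 1.56% and 3.92% of all probe sets were); all 10 differences were negative in both comparisons, so 0 were higher at an unadjusted p under 0.05, with CyberT also at 0. The median log2 fold change of the members was -0.42 with air and -0.51 with H2S, beside 0.01 and 0.00 over all probe sets. At an unadjusted p under 0.05, 8 and 9 members were lower, where 3966 and 5869 of all 28361 probe sets passed in either direction. The comparisons share the 5 control mice. In whole tissue, fewer cells of a type and less RNA per cell cannot be told apart.

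**Figure D1:**
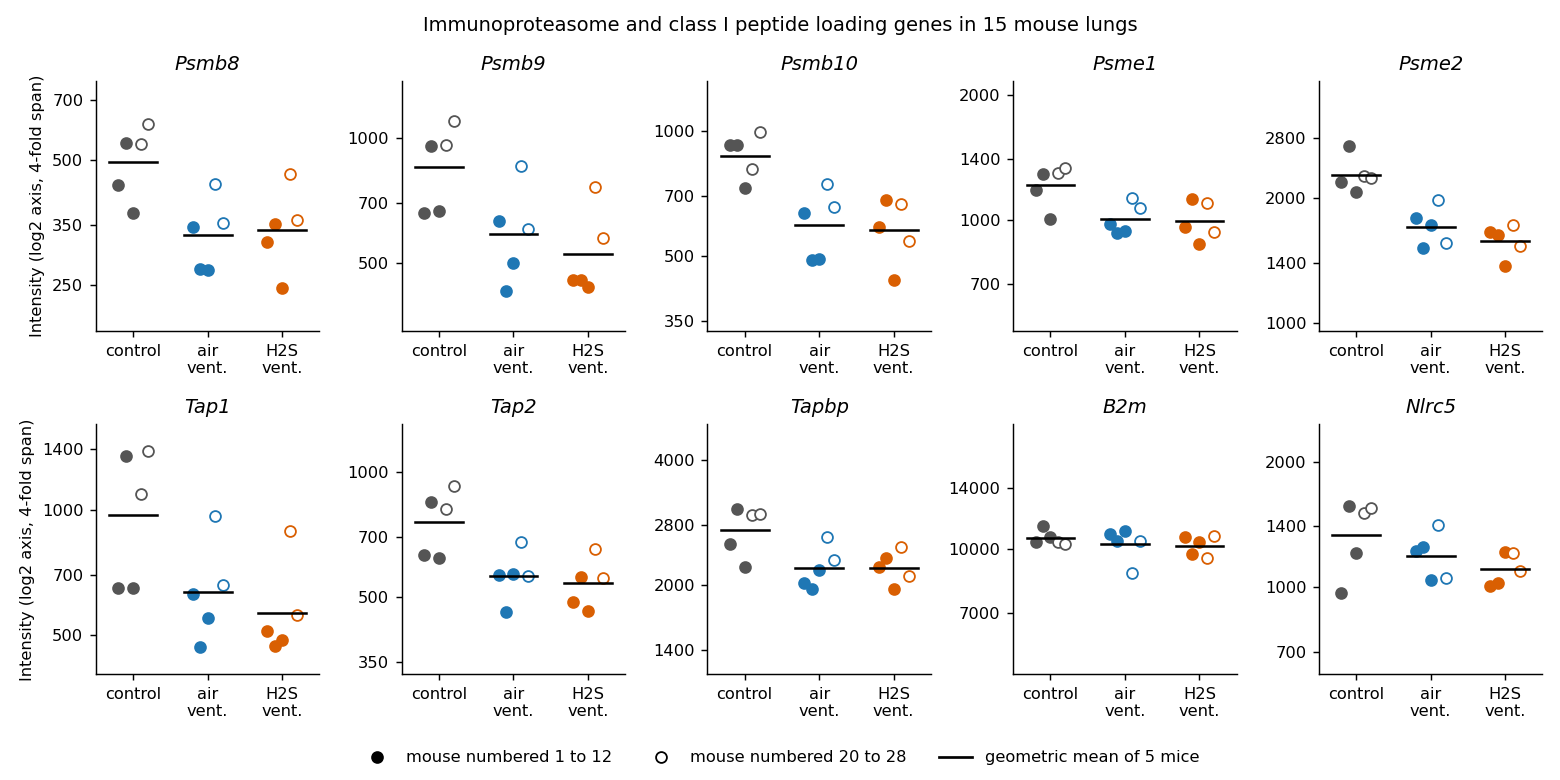
Intensity of each gene (log2 axis, every panel spanning 4-fold) in each of 15 mice: control, air-ventilated and H2S-ventilated, 5 mice each; filled points are mice numbered 1 to 12, open points 20 to 28, and bars are geometric means. For Psme2 every ventilated mouse lies below every control mouse, for Tap1 the control mice spread from 650.4 to 1387 and reach into the ventilated range, and for B2m the groups lie at one level.

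Some members also differed between the number sets. In a fit with the sets as a block, the mice numbered 20 to 28 were higher than those numbered 1 to 12 by 0.50 in log2 for Psmb9 (adjusted p = 0.0182, limma) and by 0.41 for Psmb8 (adjusted p = 0.0328), so 2 of 10 members passed, against 3.21% of all probe sets. Tap1 differed by 0.55 (adjusted p = 0.0535), whereas Psme2 differed by 0.04 and B2m by -0.09. With this block, 630 of all probe sets were lower with air and 1411 with H2S. Among the members, 5 were lower with air (Psmb8, Psmb9, Psmb10, Psme2 and Tap2) and 8 with H2S (all but B2m and Nlrc5). Within the set 1 to 12 the median log2 fold change of the members was -0.42 with air and -0.52 with H2S. Within the set 20 to 28 it was -0.36 and -0.49. All 10 members were negative each time. In the first set 0 members passed with air and 2 with H2S (Psmb9 and Psme2), where 364 and 545 of all 28361 probe sets were lower. In the second set 0 and 0 members passed, where 0 and 0 of all probe sets were lower.

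The 3 inducible catalytic subunits stood first in the chain. Psmb10, which takes the place of Psmb7, had intensities of 929, 929.5, 731, 811 and 996 in control mice 1, 5, 9, 21 and 25. They were 636, 489, 494, 747 and 657 in air-ventilated mice 2, 6, 10, 22 and 26. In H2S-ventilated mice 4, 8, 12, 20 and 28 they were 589, 684, 438, 668 and 544. All 5 H2S-ventilated mice thus lay below the lowest control, and among the air-ventilated mice only mouse 22 lay above it. Psmb10 fell by 0.55 ± 0.14 in log2 (SE, n = 5 per group) with air (limma adjusted p = 0.0408) and by 0.60 ± 0.14 with H2S (limma adjusted p = 0.0149).

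Psmb9, the partner that replaces Psmb6, was at 661, 958, 668, 962 and 1100.5 in the control mice. With air it was at 634, 429, 500.4, 858 and 604, and with H2S at 456, 456, 439, 765 and 575. Control mice 1 and 9 were lower than the other controls, and mice 22 and 20 were the highest of their ventilated groups and above those controls. Psmb9 fell by 0.70 ± 0.20 with H2S (limma adjusted p = 0.0427), and its log2 fold change with air was -0.53 ± 0.20 (limma adjusted p = 0.197).

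Psmb8, which replaces Psmb5, ranged from 373 to 611 in control mice, with a median of 547. With air it ranged from 272 to 439 (median 345) and with H2S from 246 to 462 (median 350.4), so 4 of 5 mice in each ventilated group lay under the lowest control. Its log2 fold changes of -0.58 ± 0.17 and -0.54 ± 0.17 had limma adjusted p values of 0.0869 and 0.0703. With the number sets as a block these became 0.0157 and 0.013.

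The constitutive subunits differed little. Median intensities of Psmb5 were 3506, 3467 and 3489 in control, air-ventilated and H2S-ventilated mice, those of Psmb6 were 1131, 1138 and 1189.5, and those of Psmb7 were 793, 870.0 and 792. Their log2 fold changes lay between 0.00 and 0.09, and 0 of 3 passed with either gas (limma; 0 of 3 at an unadjusted p under 0.05, with CyberT also at 0). Since each inducible subunit competes for the place of one constitutive subunit, the log2 ratio of the pair was formed in each mouse, a measure chosen after the values of the genes were seen. It is given as a description, with no test reported: the constitutive subunits differed so little that each ratio mostly repeats the change of its inducible subunit. The mean of Psmb10 over Psmb7 differed from control by -0.61 with air and -0.60 with H2S, and no ventilated mouse overlapped a control mouse in either comparison. Psmb10 alone did overlap with air, where mouse 22 lay above the lowest control. How many other pairs of genes separate this way as a ratio was not counted. The mean of Psmb8 over Psmb5 differed by -0.59 and -0.55, with 4 of 5 mice in each ventilated group below the lowest control. The mean of Psmb9 over Psmb6 differed by -0.53 and -0.79, with 2 and 3 of 5 mice below the lowest control, and air-ventilated mouse 22 sat 0.01 above the control mean. Within the number sets the 12 differences ran from -0.87 to -0.48.

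**Figure D2:**
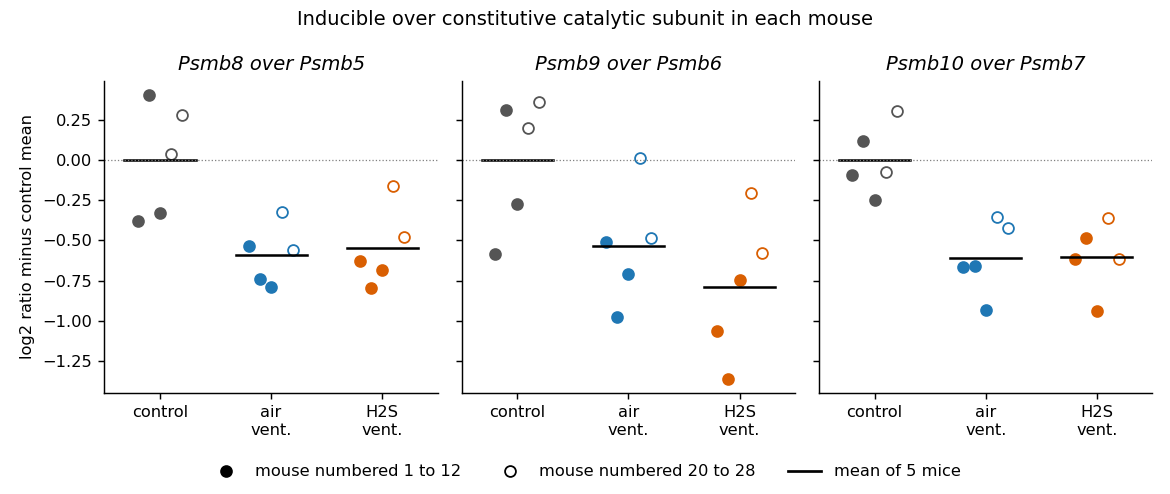
Log2 ratio of each inducible to its constitutive catalytic subunit in each mouse, minus the mean of the control mice; filled points are mice numbered 1 to 12, open points 20 to 28, bars are means of 5 mice. Psmb10 over Psmb7 shows no overlap between control and ventilated mice, whereas the control mice of the other pairs spread over 0.78 (Psmb8 over Psmb5) and 0.94 (Psmb9 over Psmb6). The intensity of Psmb10 alone overlapped between control and air-ventilated mice.

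The 11 remaining subunits of the 20S core, which both forms of the proteasome share, had log2 fold changes from -0.01 to 0.11 with air and from -0.04 to 0.09 with H2S, and 0 passed in either comparison (limma; 0 at an unadjusted p under 0.05, 0 by CyberT). The 17 measured subunits of the 19S cap, which recognizes ubiquitin-tagged proteins, all had positive log2 fold changes, with medians of 0.12 and 0.16. One of them rose with H2S, the lid subunit Psmd7 (0.36 ± 0.09, limma adjusted p = 0.0236; 0.32 ± 0.09 with air, limma adjusted p = 0.0696). With air 0 of 17 passed (4 at an unadjusted p under 0.05, 2 by CyberT), and Psmd11, another lid subunit, had 0.31 and 0.28.

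Of the PA28 activator, Psme2 gave the clearest separation of all members. It was at 2191, 2672, 2074, 2264 and 2243 in the control mice. The air-ventilated mice had 1794, 1516, 1722, 1979.9 and 1560.1, and the H2S-ventilated mice 1657, 1632, 1372, 1722 and 1532. Every ventilated mouse was below every control mouse with either gas. Psme2 fell by 0.42 ± 0.09 with air (limma adjusted p = 0.0178) and by 0.53 ± 0.09 with H2S (limma adjusted p = 0.00236). Members whose groups did not overlap were 1 of 10 with air (Psme2; 2.9% of all probe sets) and 2 of 10 with H2S (Psme2 and Psmb10; 4.09%). A second probe set that carries the symbols of Psme2 and its near copy Psme2b had -0.43 and -0.50 (limma adjusted p = 0.0792 and 0.0212), and reads of the pair cannot be split by symbol there.

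Psme1 was between 1003 and 1334 in control mice (median 1289), between 930.4 and 1127 with air (median 977) and between 873 and 1125 with H2S (median 961). Its log2 fold changes were smaller than those of its partner, -0.27 ± 0.10 and -0.29 ± 0.10 (limma adjusted p = 0.167 and 0.0809). Among 8 other activators and assembly factors, 0 passed with either gas (limma; 0 and 1 at an unadjusted p under 0.05, 0 by CyberT), including Psme4, the PA200 activator (0.18 and 0.13), and Psmg2, an assembly chaperone (-0.19 and -0.30).

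**Figure D3:**
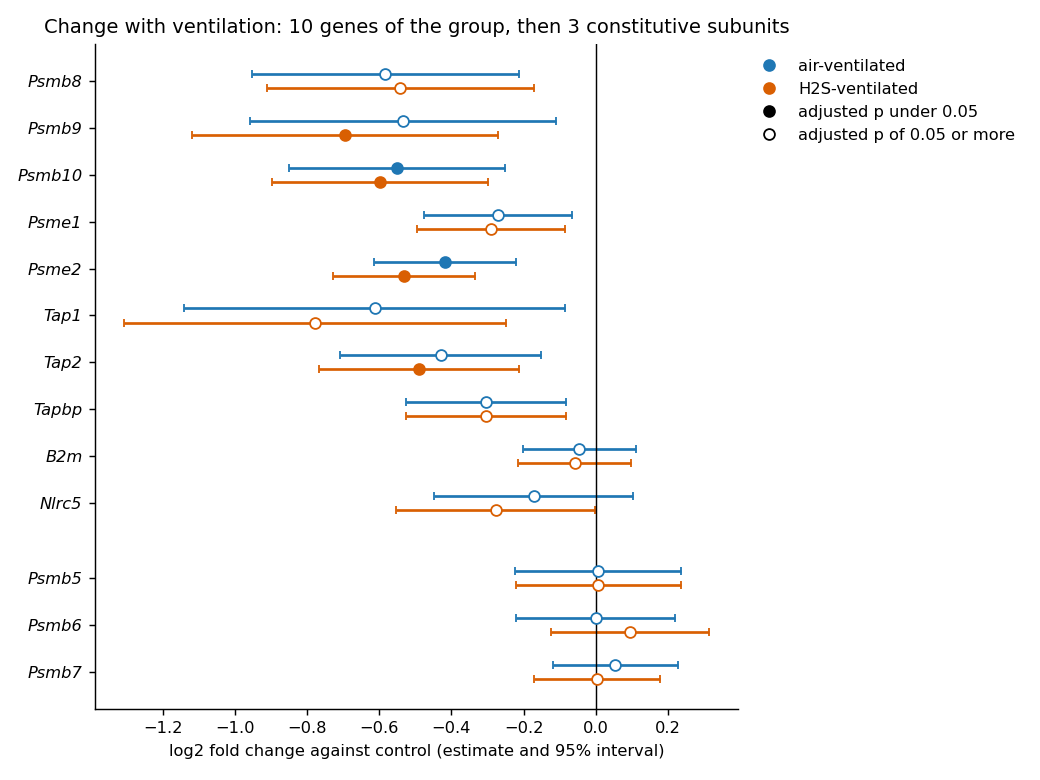
Log2 fold change against control with its 95% interval for the 10 genes and, at the bottom, the 3 constitutive subunits, for air-ventilated and H2S-ventilated mice (5 mice per group); filled points have an adjusted p under 0.05. Apart from B2m, the genes lie between -0.78 and -0.17 with both gases; B2m lies at -0.05 and -0.06, and Psmb5, Psmb6 and Psmb7 lie between 0.00 and 0.09.

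Of the transporter, Tap1 had the largest fold changes of all members and the widest spread. It was at 651, 1351, 650.4, 1092 and 1387 in the control mice, at 629, 467, 551, 967 and 662 with air, and at 512, 471, 487, 889 and 559 with H2S. Control mice 1 and 9 were far below the other controls and within the range of the ventilated mice. The log2 fold changes of -0.61 ± 0.25 and -0.78 ± 0.25 had limma adjusted p values of 0.246 and 0.0689, and with the number sets as a block 0.0932 and 0.0169.

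Tap2 was at 633, 848, 624, 816 and 926 in control mice, at 567, 461, 570.5, 679 and 563 with air, and at 487, 559.9, 464, 656 and 557 with H2S. In each ventilated group 1 mouse, 22 or 20, lay above the lowest control. Tap2 fell by 0.49 ± 0.13 with H2S (limma adjusted p = 0.0297) and had -0.43 ± 0.13 with air (limma adjusted p = 0.0927). Tapbp ranged from 2217 to 3048 in control mice (median 2961), from 1959 to 2618 with air (median 2174) and from 1957 to 2473 with H2S (median 2212), and its log2 fold change was -0.30 ± 0.10 in both comparisons (limma adjusted p = 0.15 and 0.0926). Control mouse 9 was the lowest control and lay inside the range of both ventilated groups. The 2 further probe sets that list Tapbp together with Rps3a1, a ribosomal protein gene, had between 0.00 and 0.07.

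Other loading and trimming factors gave 1 of 5 lower with each gas, namely Calr (calreticulin, a chaperone of class I folding), which fell by 0.31 ± 0.07 and 0.36 ± 0.07 (limma adjusted p = 0.0208 and 0.00474). Erap1, the peptidase that trims peptides in the endoplasmic reticulum, had -0.23 and -0.17, Tapbpl, a relative of tapasin, had -0.24 and -0.14, and Pdia3, the disulfide isomerase of the loading complex, had -0.15 and -0.18, all short of the threshold.

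B2m was at 10399, 11371, 10648, 10357 and 10241.5 in the control mice. It was at 10839.9, 10463, 11010.4, 8734 and 10443 with air, and at 10674, 9696, 10382, 9476 and 10709 with H2S. The groups overlapped throughout. Its log2 fold change was -0.05 with air (95% interval -0.20 to 0.11, limma adjusted p = 0.906) and -0.06 with H2S (-0.21 to 0.10, limma adjusted p = 0.751). Its mean intensity of 10340 stood at the 99.8th percentile of all probe sets, and whether the array still measures differences at that brightness in proportion was not tested.

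Of the class I heavy chains that pair with B2m, 9 of 19 have a probe set of their own; the classical chains H2-K1 and H2-D1 have only probe sets shared with other genes and are not given. With air 0 of 9 passed (limma; 4 lower at an unadjusted p under 0.05, 3 by CyberT), and with H2S 3 of 9 were lower. These were Cd1d1, which presents lipids to natural killer T cells, at -0.55 ± 0.13 (limma adjusted p = 0.0164; -0.47 with air, 0.0644), H2-M3, which presents formylated peptides, at -0.53 ± 0.14 (limma adjusted p = 0.0249; -0.43 with air, 0.111), and Mr1, which presents vitamin B metabolites, at -0.29 ± 0.09 (limma adjusted p = 0.0456; -0.25 with air, 0.155). H2-T24 had -0.72 and -0.89 (limma adjusted p = 0.291 and 0.097).

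Nlrc5 was at 968, 1571, 1211, 1504 and 1548 in the control mice on its brightest probe set. The air-ventilated mice had 1224, 1247, 1041, 1414 and 1051, and the H2S-ventilated mice 1005, 1023, 1212, 1205 and 1092. Control mice 5, 21 and 25 lay above every ventilated mouse, and control mouse 1 lay below all of them. Its log2 fold changes were -0.17 ± 0.13 and -0.28 ± 0.13 (limma adjusted p = 0.671 and 0.238). Most of its other probe sets differed more. Over all 19, the log2 fold change ran from -0.84 to -0.15 with air (median -0.46) and from -0.85 to -0.20 with H2S (median -0.53), all 19 negative in both comparisons, and 1 of 19 passed in each, the dimmest one (-0.53 ± 0.13, limma adjusted p = 0.0284, and -0.54 ± 0.13, limma adjusted p = 0.0135). These probe sets read 1 gene in the same mice and are not replicates.

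**Figure D4:**
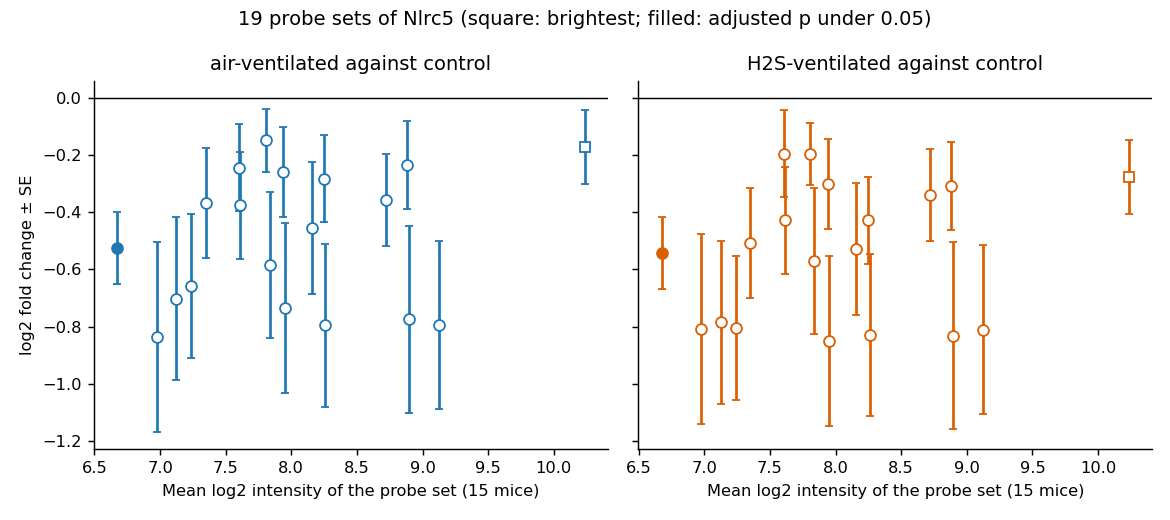
Log2 fold change (± SE) of the 19 probe sets of Nlrc5 against their mean log2 intensity over 15 mice, for air-ventilated (left) and H2S-ventilated mice (right) against control; the square is the brightest probe set and filled points have an adjusted p under 0.05. All points lie below 0, between -0.84 and -0.15 with air and between -0.85 and -0.20 with H2S, and the brightest lies near the upper end.

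Between H2S and air ventilation none of the members differed (0 of 10, where 0.0776% of all probe sets did; limma, 0 at an unadjusted p under 0.05, with CyberT also at 0). The 10 log2 differences of H2S minus air ran from -0.17 to 0.04 and the adjusted p values from 0.997 to 1. The 95% interval was -0.31 to 0.08 for Psme2, -0.35 to 0.25 for Psmb10, -0.59 to 0.26 for Psmb9 and -0.69 to 0.36 for Tap1. The intervals for the last pair therefore still hold differences as large as the changes with air. At the thresholds of the study's methods (p of at most 0.005, adjusted p of at most 10%, and an effect size of at least 1.7, read here as a fold change), 0 of 10 members were called with air and 0 of 10 with H2S by limma, beside 0.617% and 0.79% of all probe sets called lower. CyberT called 0 and 1 there, the 1 being Tap1 with H2S.

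Several of the calls changed when 1 mouse was left out. Without each of the 15 mice in turn, the count lower with air went from 0 (without control 5, air-ventilated 6 or 26) to 4 (without air-ventilated 22), being 1 without control 1 or 25, air-ventilated 2 or 10, or H2S-ventilated 4 or 28, and the count lower with H2S went from 2 (without control 5, 21 or 25, or H2S-ventilated 4, 12 or 28) to 8 (without control 9). Over all probe sets the lower calls shifted as well. With air they went from 535 to 376, 349 and 392 without control 5, air-ventilated 6 and air-ventilated 26, and to 677 without air-ventilated 22. With H2S they went from 1116 to between 716 (without H2S-ventilated 12) and 1274 (without H2S-ventilated 20), with 754 without control 9. Psme2 and Psmb10 with H2S passed each of the 15 times, with limma adjusted p values from 0.00181 to 0.00811 and from 0.0116 to 0.0435. Psme2 with air lost its call without control 5 or air-ventilated 6 or 26, Psmb10 with air passed 6 of 15 times, Psmb9 with H2S 5 of 15 times and Tap2 with H2S 9 of 15 times.

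**Figure D5:**
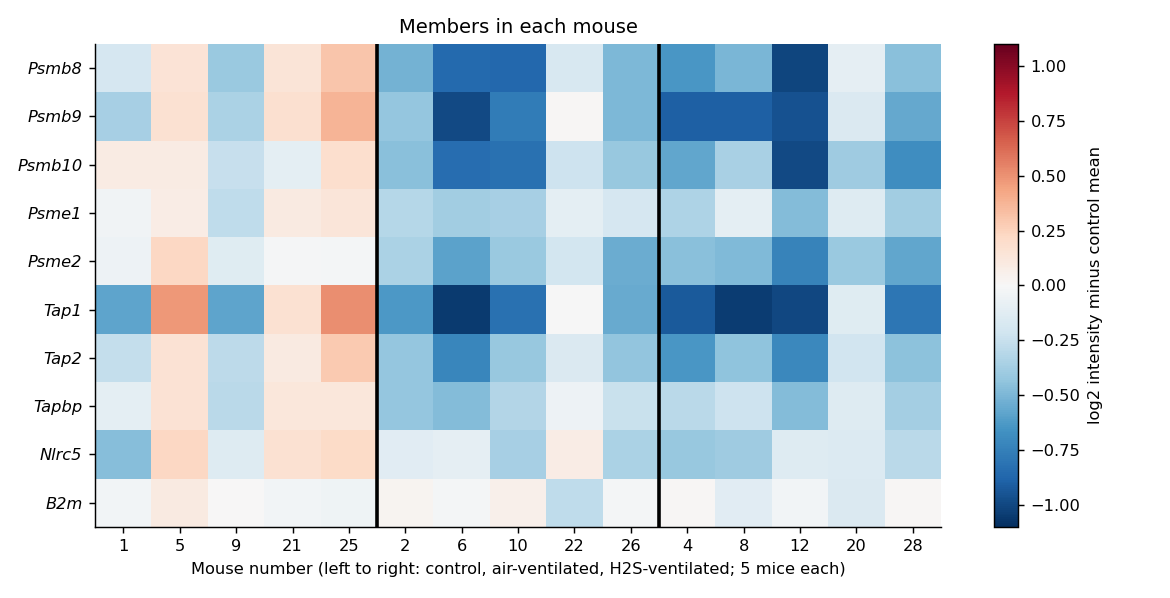
Log2 intensity of each gene minus its control mean (colour) in each mouse (columns, by number, 5 control, 5 air-ventilated and 5 H2S-ventilated from left to right). Control mice 5, 21 and 25 are high in nearly every gene and control mice 1 and 9 lower, air-ventilated mouse 22 and H2S-ventilated mouse 20 are the palest of the ventilated mice, and the row of B2m is nearly blank.

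The members moved together from mouse to mouse inside the groups. After each group's mean was taken off, Psmb9 and Tap1, the pair with a common promoter window, correlated most over the 15 mice (Pearson r = 0.954, permutation p = 2e-05, 0.00045 adjusted over 45 pairs; Spearman rho = 0.954, permutation p = 2e-05, adjusted 0.0009). Without the 2 mice farthest from the median of Psmb9, r was 0.925, and within the number sets it was 0.907 (1 to 12) and 0.978 (20 to 28). The set 20 to 28 has 2 mice per group, so any r within it rests on 1 difference per group and is a weak check. Psmb9 with Psmb8 and with Tap2, the other 2 genes of the cluster, gave 0.922 and 0.924, but Psme1 with Tapbp, which are on different chromosomes, also gave 0.924, and the neighbours Psme1 and Psme2 gave 0.63. All arrays share the normalization. The 36 pairs without B2m were all positive (0.119 to 0.954, median 0.732; 30 at an adjusted p under 0.05). The 9 pairs with B2m were all negative (-0.557 to -0.275; 1 at an adjusted p under 0.05). Within the set 1 to 12, 7 of the 9 were positive, and with group means taken off inside each set the 9 lay between -0.358 and -0.114, so the sign differed between sets.

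Outside the group, the genes most like its mean standardized profile over the 15 mice, of 21752 probe sets with 1 symbol compared, were Pml, the organizer of nuclear bodies (r = 0.961), H2-M3 (r = 0.953) and Gbp5, an interferon-induced guanylate-binding protein (r = 0.948); with group means removed, r was 0.905, 0.893 and 0.903. Pml had log2 fold changes of -0.51 ± 0.13 with H2S and -0.45 with air. It was picked by likeness to a profile that holds the group differences, so these changes largely follow from that choice and are not a separate test.

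The lists of interferon genes gave few calls by limma. All 6 measured interferon-induced GTPases had negative log2 fold changes, with medians of -0.89 and -1.20; 0 of 6 passed with air (limma; 3 at an unadjusted p under 0.05, 4 by CyberT) and 2 of 6 were lower with H2S, Gbp4 (-1.92 ± 0.52, limma adjusted p = 0.0327) and Gbp5 (-1.16 ± 0.31, limma adjusted p = 0.0305). Gbp3 and Iigp1 had -1.24 and -1.31 with H2S, short of the threshold by limma. At an unadjusted p under 0.05 (limma), 6 of 6 GTPases were lower with H2S, and CyberT also put 6 of 6 lower. The 13 measured interferon signalling factors had medians of -0.11 and -0.13, 9 of them negative with each gas, and 1 was lower with each gas, Irf8, a factor of myeloid and B cells which fell by 0.62 ± 0.13 and 0.55 ± 0.13 (limma adjusted p = 0.0154 and 0.0178). One rose with H2S, Ptpn2, a phosphatase that limits cytokine receptor signals (0.46 ± 0.10, limma adjusted p = 0.0101; 0.08 with air). Stat2 had -0.46 and -0.59 and Ifngr2, a receptor chain of interferon-gamma, -0.13 and -0.21.

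Of 8 measured genes of class II presentation, 4 were lower with air and 3 with H2S. The class II transactivator Ciita fell by 0.72 ± 0.16 and 0.55 ± 0.16 (limma adjusted p = 0.0153 and 0.0408), H2-Ob, a chain of the B-cell peptide editor, fell by 0.98 ± 0.19 with air and fell by 1.09 ± 0.19 with H2S (limma adjusted p = 0.00935 and 0.00258), its partner H2-Oa by 0.55 and 0.48, and the class II chain H2-Ab1 by 0.43 with air (-0.34 with H2S, limma adjusted p = 0.0543).

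Markers of several leukocytes differed between the same groups. Of 9 B cell markers 8 were lower with each gas, with summed intensities of 3570 to 5967 in control, 1489 to 3355 in air-ventilated and 1416 to 2669 in H2S-ventilated mice. All 7 NK cell markers were negative, with 0 passing (limma; 3 and 4 at an unadjusted p under 0.05, CyberT 3 and 4), and summed to 1708 to 2730, 645 to 1962 and 610.0 to 1729. The T cell markers gave 0 of 9 (limma; 0 at an unadjusted p under 0.05, 0 by CyberT) and summed to 1758 to 3024, 1382 to 3598 and 1735 to 2578. Neutrophil markers were higher, 2 of 7 with air and 3 with H2S, and summed to 5136 to 10400, 9791 to 15040 and 9320 to 17710. The remaining lists gave fewer calls: among monocyte markers Cx3cr1 was lower with each gas and Ace higher with H2S, among dendritic cell markers Cd209a was lower with each, among alveolar macrophage markers Mrc1 was higher with each and Marco with H2S, among endothelial markers Kdr and Tek were lower with each, and Abca3 and Rtkn2, of the alveolar epithelium, were lower with H2S. Of 5 genes of tissues other than lung, Alb was lower with air. The part of these cells in the members' differences was not tested.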

How the data were processed

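The deposited intensities come from the authors' processing of whole-transcript Affymetrix arrays, read with Command Console 3.0 and handled in Genedata Expressionist Refiner 6.1: the authors subtracted a GC-dependent background, quantile normalized the arrays, summarized probes by RMA and kept main and unmapped transcripts of annotation NA32. Of the sample columns, 0 were left unused. Probe sets were named through the platform table given for this work (21780 with 1 symbol, 1617 with several, 4964 unnamed); neither labels nor methods name a genome build.

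The deposited values are linear, so log2 was taken here, and limma 3.58.1 (R 4.3.3; lmFit, contrasts.fit, eBayes) was fitted to 28361 probe sets and 15 arrays in 1 fit with no covariate. Fold changes are differences of log2 means, and Benjamini-Hochberg adjustment covered all probe sets. The number of arrays limits the precision. The labels do not say that the mice of a group were independent in every step, so p-values measure the spread between these samples. The named genes were all members, up to 4 genes of each other list with the smallest adjusted p, and the 3 genes most like the members' mean profile; Psmb5, Psmb6 and Psmb7 and list genes that a sentence turns on were added. Members, lists and tests were chosen with earlier results of these data known. Alternatives were the groups compared alone, the number sets as a block or alone, CyberT (confidence 15, window 101), array weights, a variance trend, a minimum mean log2 of 6, an offset of 16, median centring, repeated quantile normalization, the mean of a gene's probe sets, and each mouse left out. The subunit ratios, the effect of the number sets, the runs of label numbers as a block and the covariation were added after seeing the data. Permutation tests of the ratios were run but are not reported, because the ratios mostly repeat the inducible subunits. Correlations were tested by 100000 permutations within groups, in Python 3.11.15, with plots in matplotlib 3.10.9. The limma and CyberT steps were tested on simulated data. Promoter windows are RefSeq's (GRCm38.p6). One motif of the search is not reported here.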

Additional observations from a re-analysis of the deposited data

Results flagged for a closer look

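Among the 30 sets of 5 mice (10 members in 3 groups), 2 held a mouse far from its group, where chance alone gives about 1 in 20. Tap1 in H2S-ventilated mouse 20 was at 888.6, above a median of 499.4 in the other 4 mice. On the log2 scale its gap to the next mouse made up 0.731 of the group's range (critical value 0.71). B2m in air-ventilated mouse 22 was at 8734, below a median of 10651.5 in the other 4 mice, with a gap of 0.772 of the log2 range.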

How the results depend on the processing

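The running numbers of the labels are not shared between groups, and of the first numbers of the labels only 6 and 12 occur in both a control and an air-ventilated mouse. The running numbers do fall into runs of 4, of which 4 hold a mouse of each group. Deviations from group means correlated at -0.179 to 0.358 between mice of a run in different groups (mean 0.179, 10 of 13 pairs over 0.1). Between mice of different runs the mean was -0.037. Mice of a run were thus somewhat more alike. The labels and methods do not state that a run pairs its mice, and the main fit has no term for it. With the runs as a replicate block, chosen after seeing the data, 470 of all probe sets were lower with air and 1054 with H2S. Among the members, 3 were lower with air and 6 with H2S. In all members but B2m and Nlrc5 the ventilated mouse was below the control of its run in 5 of 5 runs with air and 4 of 4 with H2S. The share of all probe sets with this pattern is not given, so it is a description only. The count of members lower with air, 2 in the report, was 5 with the number sets as a block, 7 by CyberT and 4 with array weights, and 0 in the number set 1 to 12 alone and 0 in the set 20 to 28 alone. The count lower with H2S, 4 in the report, was 8 with the block and 7 by CyberT, and 2 and 0 in the sets alone. Leaving out 1 mouse at a time gave 0 to 4 with air and 2 to 8 with H2S. Over all probe sets it gave 315 to 677 lower calls with air and 716 to 1274 with H2S. The cause of these shifts was not tested, and the sets alone hold fewer mice. Over all probe sets the set 20 to 28 made 0 lower calls with air and 0 with H2S, and the set 1 to 12 made 364 and 545. No member was higher, and none differed between the gases, in any of these settings. All other settings gave counts within 1.5 times. Called members kept their sign throughout; the log2 fold change of B2m with air, which was not called, ranged from -0.11 to 0.01. Over all probe sets, CyberT made 950 lower calls with air where limma made 535, and array weights 876. Centring the arrays on their medians changed the lower and higher calls with H2S from 1116 and 1112 to 934 and 1407, and no count of members by over 1.5 times. With 5 mice per group, the log2 fold changes of Psme1 and Tapbp (-0.27 to -0.30) did not pass, which does not show that these genes stayed the same.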
